A study of Mus musculus with 4 samples.

Results

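Inpp4b, Inpp5d, Pik3cd, Pik3r1, Akt1, Akt2, Sgk1, Prr5l and Rictor form a set of 9 genes of phosphoinositide 3-kinase (PI3K) signalling, among 18193 genes named on the array. They cover lipid phosphatases, PI3K subunits, the kinases that respond to PI3K, and the mTOR complex called mTORC2. The set was chosen by signals on these same arrays, where Inpp4b and Prr5l had stood among the largest differences, so the levels below are a description and support nothing by themselves. Every probe set annotated to 1 of these genes was taken, 30 of 45037, and the probe set with the highest mean signal represents its gene and is called the main probe set.

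CD4+ CD8- thymocytes were sorted from female mice aged 6 to 8 weeks, first on magnetic beads and then by flow, and their RNA was hybridised to Affymetrix mouse 430 2.0 arrays, 1 array per population. Foxp3(gfp/gfp) mice carry a knockin allele whose product joins GFP to Foxp3, the transcription factor of regulatory T cells. They gave GFP- CD25- thymocytes (here CD25- cells), GFP- CD25+ thymocytes (CD25+ cells) and GFP+ thymocytes (fusion cells). Foxp3(gfpko/wt) females carry a GFP knockout allele on one X chromosome and a wild-type allele on the other, and gave GFP+ thymocytes (null cells). Null cells thus developed in animals that also hold cells using the wild-type allele. Mice of the null array were at backcross 2 from 129/Sv to C57BL/6, the rest at backcross 4 to 6, so genotype, backcross, mice and array cannot be told apart. The sources used here do not say how many mice were pooled. With 1 array per group no difference has a replicate check, an error or a p-value, and the number of arrays limits the precision.

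PI3K makes the membrane lipid that recruits Akt after a T cell receptor or cytokine receptor is engaged. Lipid phosphatases remove this signal, PDK1 and mTORC2 activate the Akt and SGK kinases, and these kinases restrain FOXO transcription factors. In T cells the pathway is known for its control of growth, trafficking and maturation, and weak PI3K and Akt signalling is known to favour the generation of Foxp3+ cells.

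Signals are log2 values, quantile normalized over the 4 arrays; values as deposited are given where they change a reading. A floor of 4.75 log2, set by genes of silent tissues, marks the level below which a signal was not read. Where one side of a difference was under the floor, the fold is a lower bound and carries "at least"; where both were, no fold is given. The T cell genes Cd4, Cd3e and Cd3d lay at 8.37 log2 or above on all 4 arrays. Probe sets for the 2 ends of the actin transcript were 5.02 (fusion) to 9.29 log2 (CD25+) apart, and the 90th percentiles of the deposited values ran from 7.54 (null) to 8.16 (fusion). The part of these array differences in the results was not tested. In bulk samples, fewer cells of a type and less RNA per cell cannot be told apart.

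Promoter windows of the 3 members with the widest range on the main probe set are shown first, because the mice differ in a forkhead transcription factor. Each runs from 250 bases before to 50 bases after a RefSeq start site in GRCm38.p6, on the strand of the gene. Both strands of 23 windows of the 9 genes were searched for the forkhead motif GTAAACA and the STAT motif TTCNNNGAA. Capitals mark a match. The only Inpp4b window lies at chr8:81342312-81342611 on the plus strand, the first of 6 Sgk1 windows at chr10:21881934-21882233 on the plus strand, and the first of 3 Prr5l windows at chr2:101882978-101883277 on the minus strand.

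Inpp4b: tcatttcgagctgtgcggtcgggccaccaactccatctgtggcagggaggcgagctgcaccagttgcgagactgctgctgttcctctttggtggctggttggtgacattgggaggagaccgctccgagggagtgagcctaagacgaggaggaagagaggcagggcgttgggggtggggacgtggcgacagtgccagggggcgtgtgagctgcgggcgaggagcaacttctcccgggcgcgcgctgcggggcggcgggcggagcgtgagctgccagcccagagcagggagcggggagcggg

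Sgk1: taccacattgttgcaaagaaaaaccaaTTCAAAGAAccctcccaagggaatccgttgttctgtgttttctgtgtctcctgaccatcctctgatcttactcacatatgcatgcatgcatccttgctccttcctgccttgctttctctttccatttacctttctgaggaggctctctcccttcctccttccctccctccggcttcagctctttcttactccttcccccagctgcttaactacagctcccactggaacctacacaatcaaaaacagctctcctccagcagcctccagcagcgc

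Prr5l: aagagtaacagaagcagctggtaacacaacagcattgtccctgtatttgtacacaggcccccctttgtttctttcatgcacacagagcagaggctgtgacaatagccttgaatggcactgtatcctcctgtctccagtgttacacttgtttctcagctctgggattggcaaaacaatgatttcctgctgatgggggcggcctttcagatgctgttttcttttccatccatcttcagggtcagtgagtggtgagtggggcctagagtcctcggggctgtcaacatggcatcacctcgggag

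The STAT letters occurred in 2 of the 23 windows, the Sgk1 window printed above, 223 bases before the start, and an Akt2 window at chr7:27591302-27591601, 160 bases before the start. They occurred in 8.30% of all 32851 windows. The forkhead letters occurred in 1 of the 23, an Akt1 window at chr12:112674835-112675134, 161 bases before the start, and in 3.65% of all windows. Neither motif was found in the windows of Inpp4b or Prr5l. A match is a run of letters, not a site.

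Across the arrays the main probe sets of the 9 genes fell into a wide and a narrow group. Inpp4b, Sgk1, Prr5l and Pik3cd ranged over at least 2-fold on their main probe sets, whereas Inpp5d, Pik3r1, Akt1, Akt2 and Rictor stayed under 2-fold. That is 4 of 9 genes against 40.3% of the 7614 genes above the floor on at least 1 array, a share near the background. On the deposited scale it was 6 of 9, with Akt2 and Rictor added, against 43.4% of 7634 genes. The main Pik3r1 probe set holds 1 deposited value on all 4 arrays, so its narrow range says nothing of the gene. Other probe sets of narrow genes ranged further, 1425514_at of Pik3r1 over 2.82 log2. For Rictor, 1441753_at ranged over 1.06 and 1429810_at over at least 2.33 log2. The main probe sets of 7 genes were above the floor on all 4 arrays, that of Sgk1 was under it on 1 array and that of Prr5l on 2. Of the 30 probe sets, 16 were above the floor on at least 1 array and 11 on all 4.

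**Figure D1:**
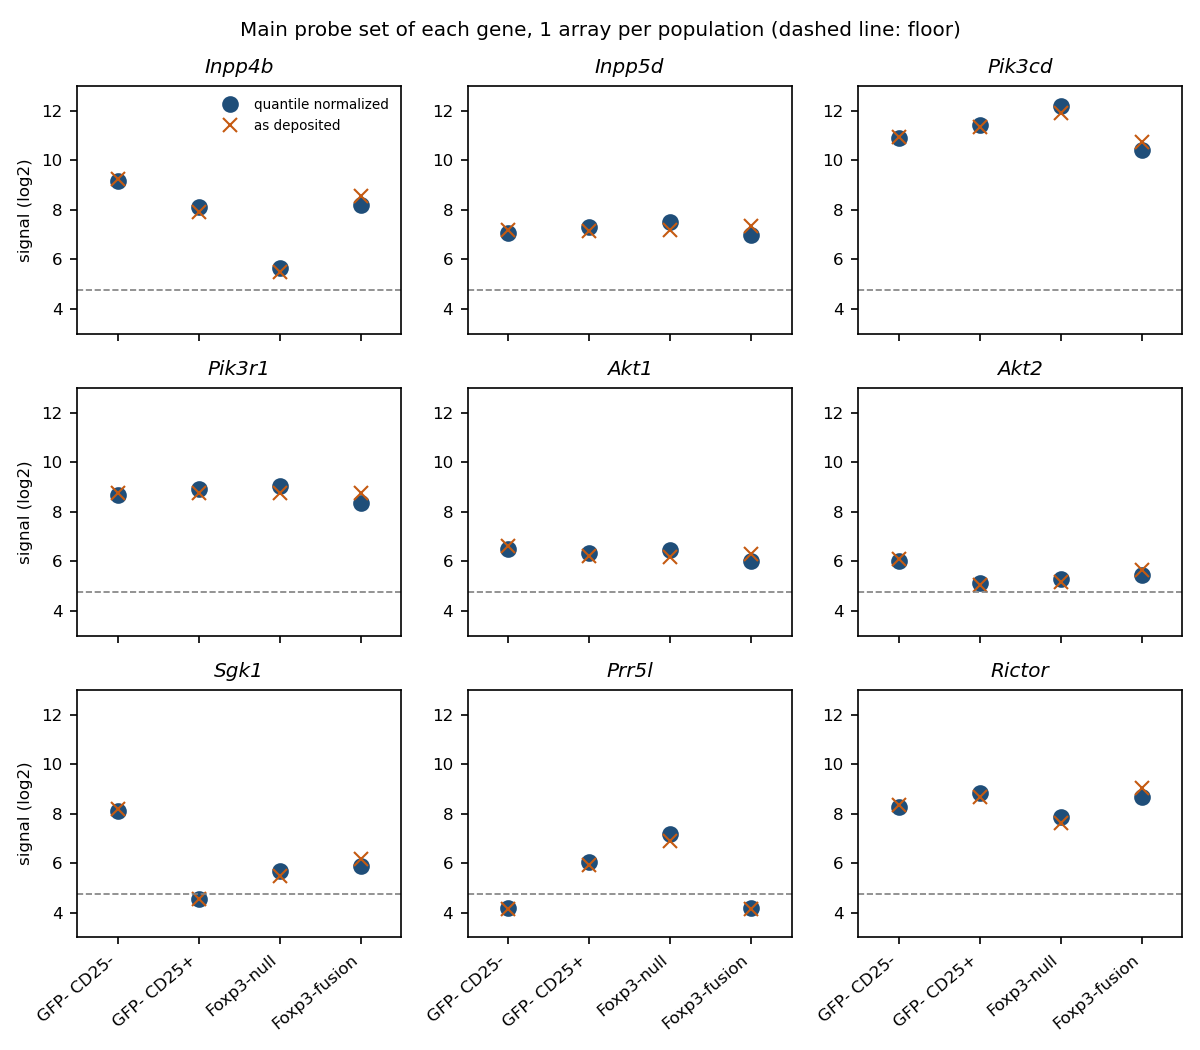
Signal in log2 of the main probe set of each of the 9 genes (vertical axis) on the 4 arrays (horizontal axis), quantile normalized (circles) and as deposited (crosses), with the floor as a dashed line. Inpp4b is lowest on the null array, Sgk1 is highest on the CD25- array, Prr5l is above the floor on the CD25+ and null arrays only, and the crosses of Pik3r1 are level at 8.74.

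Inpp4b encodes a phosphatase that takes a phosphate off a phosphoinositide to which Akt binds. The gene lies at chr8:81342266-82134312. It read 9.18 log2 in CD25- cells, 8.10 in CD25+ cells, 5.67 in null cells and 8.18 in fusion cells. The null array stood well below the other arrays. Null cells were 11.4-fold lower than CD25- cells, 5.39-fold lower than CD25+ cells and 5.72-fold lower than fusion cells. As deposited these were 13.8-fold, 5.39-fold and 8.38-fold. CD25- cells were highest, with CD25+ cells 2.12-fold and fusion cells 1.99-fold lower, or 2.55-fold and 1.64-fold as deposited. CD25+ and fusion cells were 1.06-fold apart, or 1.56-fold as deposited. The other Inpp4b probe set was under the floor on all 4 arrays, so the pattern rests on 1 probe set.

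Inpp5d encodes SHIP-1, a phosphatase of blood cells that acts on the lipid made by PI3K. It read 7.06 log2 in CD25- cells, 7.32 in CD25+ cells, 7.49 in null cells and 6.98 in fusion cells. These values span 1.43-fold, and only 0.18 log2 as deposited, where the order of the arrays differs too. The other Inpp5d probe set stayed under the floor. The phosphatases thus differed in pattern: Inpp4b ranged over 3.51 log2 and Inpp5d over 0.52.

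Pik3cd encodes p110delta, the catalytic PI3K subunit typical of leukocytes, and its probe sets disagreed. The main probe set, 1443798_at, read 10.89 log2 in CD25- cells, 11.41 in CD25+ cells, 12.20 in null cells and 10.42 in fusion cells. Null cells were highest on it, 2.48-fold above CD25- cells (1.97-fold as deposited) and 3.44-fold above fusion cells (2.30-fold as deposited). The probe set 1446770_at read 7.16, 6.53, 5.40 and 6.08 log2 on the same arrays in that order. Null cells were lowest on it, 3.38-fold under CD25- cells and 2.19-fold under CD25+ cells. The remaining bright probe set, 1453281_at, read 5.59, 4.82, 5.50 and 5.28 log2, with null and CD25- cells 1.06-fold apart. No direction is therefore given for Pik3cd in null cells. Probe sets of a gene at least 2-fold apart in opposite directions, in 1 or more of the pairs of arrays, occurred in 7.16% of the 2906 genes with 2 or more bright probe sets. Of the 5 members with as many bright probe sets, 1 showed it, Pik3cd. The files do not give where on the transcript a probe set lies.

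Pik3r1 encodes p85alpha, the regulatory subunit that stabilises the catalytic subunit and takes it to receptors. Its main probe set, 1438682_at, holds the same deposited value, 8.74 log2, on all 4 arrays. Only 18 of the 11449 probe sets above the floor on all 4 arrays do so, or 0.157%. The normalized values of 8.67, 8.91, 9.02 and 8.37 log2 differ through the normalization alone, and no difference is read from them. A further probe set, 1425514_at, did vary and read 7.97 log2 in CD25- cells, 8.26 in CD25+ cells, 6.02 in null cells and 8.84 in fusion cells. Null cells were lowest on it, 3.85-fold under CD25- cells, 4.74-fold under CD25+ cells and 7.06-fold under fusion cells. As deposited the gap to fusion cells was 10.6-fold. Fusion cells were highest, 1.83-fold above CD25- cells, or 2.22-fold as deposited. The other 2 Pik3r1 probe sets were under the floor.

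**Figure D2:**
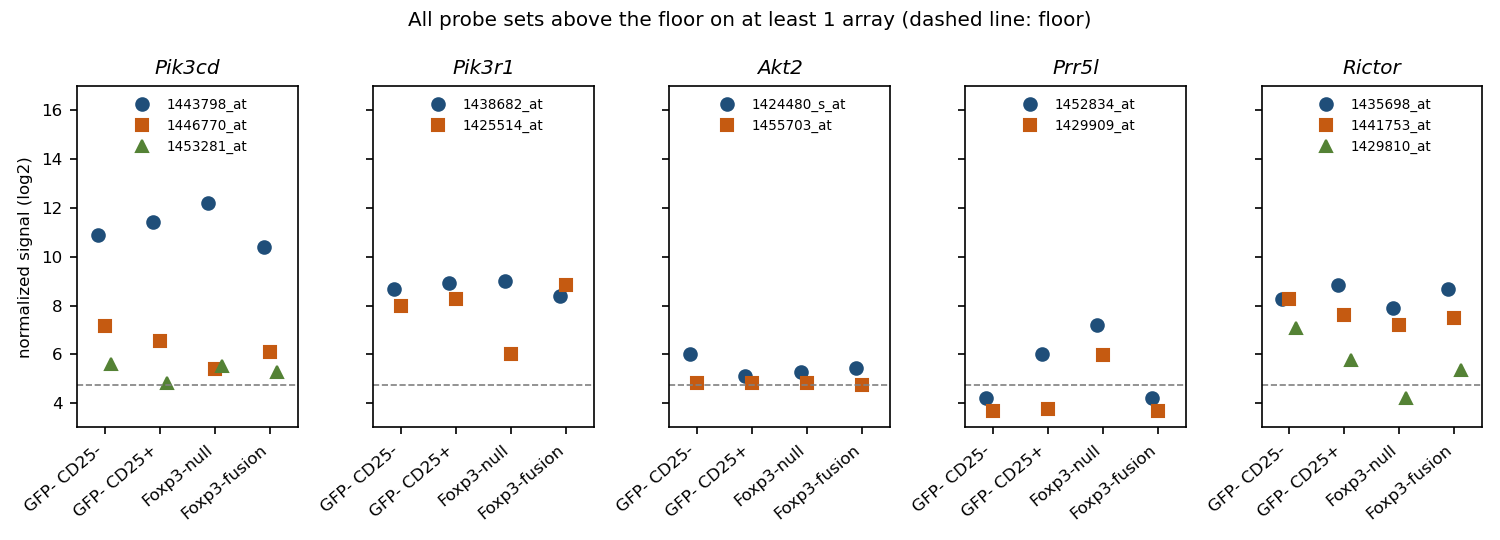
Normalized log2 signal (vertical axis) of every probe set above the floor on at least 1 array, for the 5 genes with more than 1 such probe set, on the 4 arrays (horizontal axis), with the floor as a dashed line. For Pik3cd the brightest probe set is highest and 1446770_at lowest on the null array, for Pik3r1 only 1425514_at drops there (6.02), and the probe sets of Prr5l are highest and those of Rictor lowest on it.

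Akt1 and Akt2 encode the Akt kinases, through which PI3K promotes survival, growth and glucose uptake. Akt1 read 6.51 log2 in CD25- cells, 6.33 in CD25+ cells, 6.44 in null cells and 6.03 in fusion cells. Its range was 1.40-fold, and its other 3 probe sets were under the floor. Akt2 read 6.02 log2 in CD25- cells, 5.11 in CD25+ cells, 5.27 in null cells and 5.44 in fusion cells on its main probe set. CD25- cells were highest, 1.89-fold above CD25+ cells, or 2.08-fold as deposited. A further Akt2 probe set, 1455703_at, lay at the floor, with 4.73 to 4.84 log2, and showed no such step. On the normalized scale neither Akt gene reached 2-fold in any pair of arrays.

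Sgk1 encodes a kinase related to Akt that mTORC2 activates. The gene lies at chr10:21882184-21999903 and has 1 probe set here. It read 8.10 log2 in CD25- cells, 4.53 in CD25+ cells, 5.69 in null cells and 5.90 in fusion cells. CD25- cells were high and the other populations low, with CD25+ cells under the floor. CD25+ cells were at least 10.2-fold below CD25- cells, null cells 5.30-fold and fusion cells 4.57-fold. Fusion cells were at least 2.23-fold and null cells at least 1.92-fold above CD25+ cells. The GFP+ populations were 1.16-fold apart from each other, or 1.58-fold as deposited. The order of the 4 levels was the same on both scales.

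Prr5l encodes Protor-2, a protein that binds mTORC2, and the gene lies at chr2:101713110-101883052. Its main probe set, 1452834_at, read 4.19 log2 in CD25- cells, 6.03 in CD25+ cells, 7.19 in null cells and 4.19 in fusion cells. It was above the floor in CD25+ and null cells only. Null cells were at least 5.43-fold above both CD25- and fusion cells, and CD25+ cells at least 2.44-fold above both. Null cells exceeded CD25+ cells by 2.23-fold, or 1.97-fold as deposited. A further probe set, 1429909_at, read 3.66, 3.76, 5.97 and 3.69 log2, with null cells alone above the floor and at least 2.33-fold above the rest. Both bright probe sets thus put null cells highest, and they differed on CD25+ cells. The remaining probe set was under the floor throughout.

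Rictor encodes the scaffold that defines mTORC2, and the gene lies at chr15:6708349-6800401. Its main probe set, 1435698_at, read 8.28 log2 in CD25- cells, 8.84 in CD25+ cells, 7.88 in null cells and 8.67 in fusion cells. All pairs were under 2-fold apart. As deposited, null cells were 2.70-fold under fusion cells and 2.08-fold under CD25+ cells. The probe set 1441753_at read 8.25, 7.62, 7.19 and 7.47 log2 and 1429810_at read 7.08, 5.78, 4.20 and 5.36. All 3 bright Rictor probe sets were lowest in null cells, by 1.32-fold, 2.08-fold and at least 5.03-fold against CD25- cells. They differed in which array was highest, CD25+ on the main probe set (fusion as deposited, at 9.04 log2 against 8.66 in CD25+ cells) and CD25- on the others.

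Counted by comparison on the main probe sets, 15 of the 53 differences with a value were at least 2-fold, 6 upward and 9 downward, and 6 of the 15 are lower bounds. The comparisons share arrays. Fusion against CD25- cells had 1 of 8 members at least 2-fold apart, Sgk1, beside 16.2% of all genes. Null against CD25- cells had 4 of 9, beside 18.3%: Prr5l was higher, Inpp4b and Sgk1 lower, and Pik3cd higher on its main probe set but 3.38-fold lower on 1446770_at. Fusion against null cells had 3 of 9, beside 17.8%: Inpp4b was higher, Prr5l lower, and Pik3cd lower on its main probe set but 1.60-fold higher on 1446770_at. CD25+ against CD25- cells had 3 of 9, beside 8.87%: Prr5l was higher, Inpp4b and Sgk1 lower. Fusion against CD25+ cells had 2 of 9, beside 20.1%: Sgk1 was higher, Prr5l lower. Null against CD25+ cells had 2 of 9, beside 16.3%: Prr5l was higher, Inpp4b lower. As deposited, in the same order, the counts were 1 of 8, then 3, 4, 4, 2 and 2 of 9. Beside these stand 19.3%, 17.6%, 23.7%, 10.4%, 25.4% and 15% of all genes. Rictor entered for fusion over null and null over CD25+ cells, and Akt2 for CD25+ over CD25- cells. Pik3cd left for null over CD25- cells and Prr5l for null over CD25+ cells. Nothing is read from these shares, since the set was chosen on these arrays.

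The members' median log2 difference, set beside that of all genes, was -0.48 against -0.05 for fusion over CD25- cells, -0.07 against 0.22 for null over CD25- cells and -0.42 against -0.16 for fusion over null cells. It was 0.24 against 0.11 for CD25+ over CD25- cells, -0.30 against -0.11 for fusion over CD25+ cells and 0.16 against 0.10 for null over CD25+ cells. The value of 0.24 is that of the main Pik3r1 probe set, which differs through the normalization alone. As deposited, the medians were -0.26 against 0.16 for fusion over CD25- cells, -0.42 against -0.02 for null over CD25- cells and 0.13 against 0.31 for fusion over null cells. They were -0.01 against -0.03 for CD25+ over CD25- cells, 0.18 against 0.27 for fusion over CD25+ cells and 0.05 against 0.00 for null over CD25+ cells. The scale thus turned the sign of the members' median for CD25+ over CD25-, fusion over null and fusion over CD25+ cells.

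**Figure D3:**
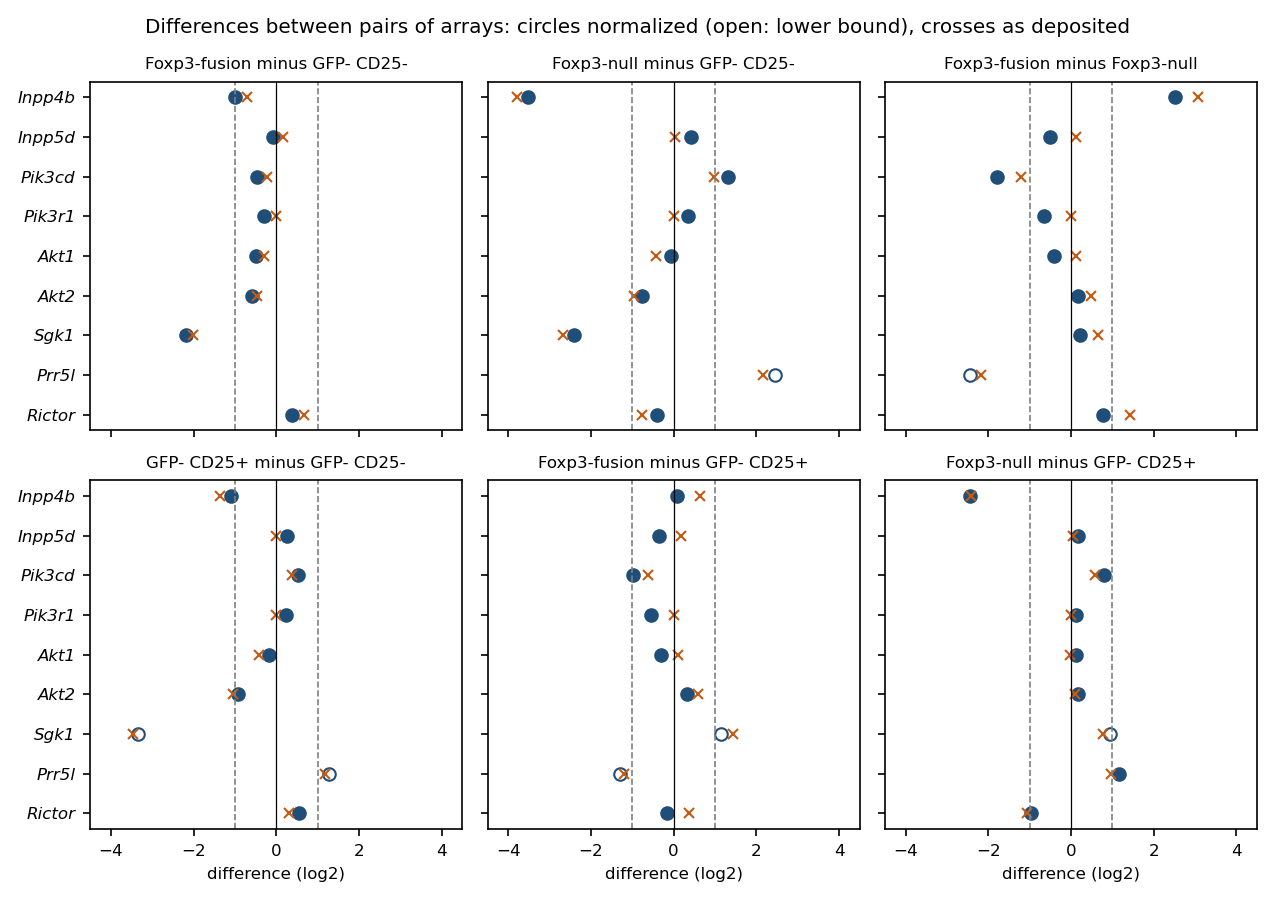
Log2 difference (horizontal axis) of each of the 9 genes (vertical axis) in the 6 pairs of arrays, on the main probe sets, with dashed lines at 2-fold. Circles are normalized values, open where one side is under the floor and the value is a lower bound, and crosses are values as deposited. Inpp4b, Sgk1, Prr5l and Pik3cd hold all 15 circles past the lines, and the crosses of Pik3r1 sit at 0.

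Among the 16 bright probe sets of the members, the array with the highest signal was counted, with the share over all 15067 bright probe sets in brackets. The highest signal was found for 8 in CD25- cells (19.8%), 2 in CD25+ cells (20.3%), 5 in null cells (34.3%) and 1 in fusion cells (25.4%). As deposited, leaving out ties, it was found for 9 in CD25- cells (23.4%), 0 in CD25+ cells (15.3%), 3 in null cells (16.5%) and 3 in fusion cells (42.6%). The lowest signal was found for 2 in CD25- cells (19%), 3 in CD25+ cells (19%), 6 in null cells (24%) and 5 in fusion cells (38%). As deposited, again without ties, it was found for 0 in CD25- cells (15.8%), 4 in CD25+ cells (24.1%), 7 in null cells (35.6%) and 3 in fusion cells (21%). On the normalized scale the 2 lowest in CD25- cells are Prr5l probe sets, under the floor in both CD25- and fusion cells. The main Pik3r1 probe set, from which no difference is read, is among the 5 lowest in fusion and the 5 highest in null cells. The 8 probe sets highest in CD25- cells came from 6 genes and the 6 lowest in null cells from 4. Of the 7 bright probe sets that are not the main one of their gene, 4 were lowest in null cells, against 26.7% of 4624 such probe sets on the array. Probe sets of 1 gene share a transcript and are not replicates.

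The pathway was followed further with 73 other genes listed by role, of which 68 had a probe set named here and 50 were above the floor on at least 1 array. Of the 50, 27 (54%) were at least 2-fold apart between some pair of arrays, beside 40.3% of all genes. Fusion over CD25- cells had 7 of 48 at least 2-fold up and 8 down, beside 10.5% and 5.75% of all genes; as deposited it had 10 of 48 and 6, beside 15.5% and 3.83%. Null over CD25- cells had 3 of 48 at least 2-fold up and 4 down, beside 10.7% and 7.68% of all genes; as deposited it had 1 of 48 and 7, beside 5.18% and 12.4%. Fusion over null cells had 6 of 48 at least 2-fold up and 4 down, beside 9.2% and 8.57% of all genes; as deposited it had 9 of 49 and 0, beside 20.8% and 2.93%. CD25+ over CD25- cells had 2 of 47 at least 2-fold up and 5 down, beside 4.28% and 4.59% of all genes; as deposited it had 2 of 47 and 9, beside 2.75% and 7.63%. Fusion over CD25+ cells had 9 of 49 at least 2-fold up and 6 down, beside 11.7% and 8.36% of all genes; as deposited it had 20 of 49 and 4, beside 22.3% and 3.13%. Null over CD25+ cells had 7 of 49 at least 2-fold up and 4 down, beside 8.74% and 7.56% of all genes; as deposited it had 5 of 49 and 4, beside 6.37% and 8.6%. The split of up and down thus depends on the scale.

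The largest difference on the list was in Phlpp1, which encodes a phosphatase that removes an activating phosphate from Akt. Phlpp1 read 5.64 log2 in CD25- cells, 7.44 in CD25+ cells, 6.04 in null cells and 9.10 in fusion cells. Fusion cells stood 8.33-fold above null cells and 3.17-fold above CD25+ cells. Inpp5f, a phosphoinositide phosphatase, read 8.01 log2 in CD25- cells, 8.85 in CD25+ cells, 8.57 in null cells and 10.06 in fusion cells. Fusion cells were 4.13-fold above CD25- cells, and all 3 bright Inpp5f probe sets put them highest. Inpp4a, the relative of Inpp4b, read 6.78, 6.17, 6.26 and 6.98 log2 on the arrays in the same order and was under 2-fold apart in every pair, but 2.49-fold higher in fusion than in null cells as deposited.

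Of the other PI3K subunits, 4 of 9 were at least 2-fold apart between fusion and CD25- cells, beside 16.2% of all genes, and 2 of 9 as deposited, beside 19.3%. Pik3r5, a regulatory subunit of p110gamma, was 2.75-fold lower in fusion cells, and Pik3c3, the kinase of autophagy, was at least 2.05-fold higher. Pik3cg and Pik3ca, which encode p110gamma and p110alpha, were on their main probe sets 2.05-fold and 2.01-fold lower, but 1.83-fold and 1.65-fold as deposited. Pik3cg was also 2.83-fold lower in CD25+ than in CD25- cells. Of the 4 other bright Pik3ca probe sets, 3 put fusion cells above CD25- cells, unlike the main one, so no direction is given for Pik3ca. They read 7.22, 7.55, 4.34 and 7.86 log2 for 1429434_at, 7.49, 7.96, 6.14 and 8.29 for 1429435_x_at and 6.53, 6.36, 5.42 and 7.20 for 1423144_at, and were lowest in null cells. Pik3ip1, which encodes a membrane inhibitor of PI3K, was 2.21-fold higher in null than in CD25+ cells.

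Sgk3, a relative of Sgk1, read 7.56 log2 in CD25- cells, 6.46 in CD25+ cells, 5.93 in null cells and 6.05 in fusion cells. It was highest in CD25- cells, as Sgk1 was, and its other bright probe set gave 7.44, 5.91, 5.91 and 5.34 log2. Ndrg1, whose product is a known SGK1 substrate, was also highest in CD25- cells, at 9.57, 8.75, 8.51 and 8.14 log2 over the arrays. The other bright Ndrg1 probe set read 6.67, 5.63, 6.35 and 6.44 log2. CD25- cells were highest on it too, but null and fusion cells were closer to them. Pdpk1, which encodes PDK1, read 9.46, 9.27, 7.62 and 9.22 log2, and null cells were 3.58-fold below CD25- cells. Its other bright probe set read 6.77, 7.38, 6.13 and 6.58 log2, a smaller drop.

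Mtor, the kinase of both mTOR complexes, read 8.49, 8.51, 9.13 and 8.25 log2, and Mapkap1, which encodes the mTORC2 subunit Sin1, read 6.17, 6.34, 6.51 and 6.18. Neither was 2-fold apart in any pair of arrays on the main probe set. Rptor, which defines mTORC1, was above the floor in CD25+ cells only, at least 4.27-fold above the others. Ddit4, an inhibitor of mTORC1, was 2.53-fold higher in fusion than in CD25- cells and 3.80-fold higher than in CD25+ cells. Prr5, the relative of Prr5l, was under the floor on all 4 arrays.

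Foxo1, a transcription factor that Akt keeps out of the nucleus, read 9.78 log2 in CD25- cells, 10.18 in CD25+ cells, 10.86 in null cells and 10.85 in fusion cells. Fusion cells were 2.09-fold and null cells 2.12-fold above CD25- cells, the latter 1.66-fold as deposited. Of 7 measured genes listed as FOXO targets, 1 was at least 2-fold higher in fusion than in CD25- cells, Ccr7, a homing receptor, and 2 were lower, Il7r, the interleukin-7 receptor, and Bcl2l11, which encodes the death-promoting protein Bim. Beside these counts stand 10.5% up and 5.75% down over all genes. As deposited Txnip, an inhibitor of glucose uptake, was also higher, by 2.22-fold. The main Bcl2l11 probe set read 11.42 log2 in CD25- and 9.41 in fusion cells, but its other bright probe set read 7.80 and 7.46. Null over CD25- cells had 1 of the 7 higher, Ccr7, and 1 lower, Il7r, beside 10.7% and 7.68% over all genes. As deposited that comparison had 0 higher and 1 lower, beside 5.18% and 12.4%. Il7r read 11.23 log2 in CD25- cells, 8.22 in CD25+ cells, 9.41 in null cells and 9.93 in fusion cells.

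The other listed genes at least 2-fold apart are given by role with their widest difference. Tbc1d1, a regulator of glucose transporter traffic that Akt phosphorylates, was 3.62-fold lower in fusion than in CD25+ cells. Its relative Tbc1d4 was at least 2.63-fold higher in null than in CD25- cells on its main probe set. The other bright Tbc1d4 probe set read 3.76 log2 in CD25-, 5.11 in CD25+, 4.96 in null and 3.82 in fusion cells. It was thus highest in CD25+ cells and only just above the floor in null cells. Cdkn1b, which encodes the cell cycle inhibitor p27, was 2.52-fold higher in fusion than in null cells. Foxo3, a relative of Foxo1, was 2.25-fold lower in fusion than in null cells on its main probe set, or 1.48-fold as deposited. The other bright Foxo3 probe set read 5.75 log2 in CD25-, 6.03 in CD25+, 7.08 in null and 6.80 in fusion cells. Null and fusion cells were closer on it, and fusion cells lay above CD25- cells, unlike on the main one. Gsk3a, a kinase that Akt inhibits, was 2.08-fold lower in fusion than in CD25+ cells, or 1.48-fold as deposited.

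Telo2, needed for the assembly of mTOR complexes, was 3.28-fold lower in fusion than in CD25+ cells. Rheb, the GTPase that activates mTORC1, was lowest in CD25+ cells, 2.08-fold under fusion and 2.05-fold under CD25- cells. Tsc1, which restrains Rheb, was 2.17-fold lower in fusion than in CD25+ cells, or 1.49-fold as deposited. Trib2, a pseudokinase that binds Akt, was lowest in CD25+ cells, 2.82-fold under fusion, 2.81-fold under null and 2.18-fold under CD25- cells. The lipid phosphatase gene Inpp5k was 2.54-fold higher in null than in CD25+ cells. Pik3c2a, a class of PI3K that acts in membrane traffic, was 2.40-fold higher in fusion than in CD25+ cells.

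**Figure D4:**
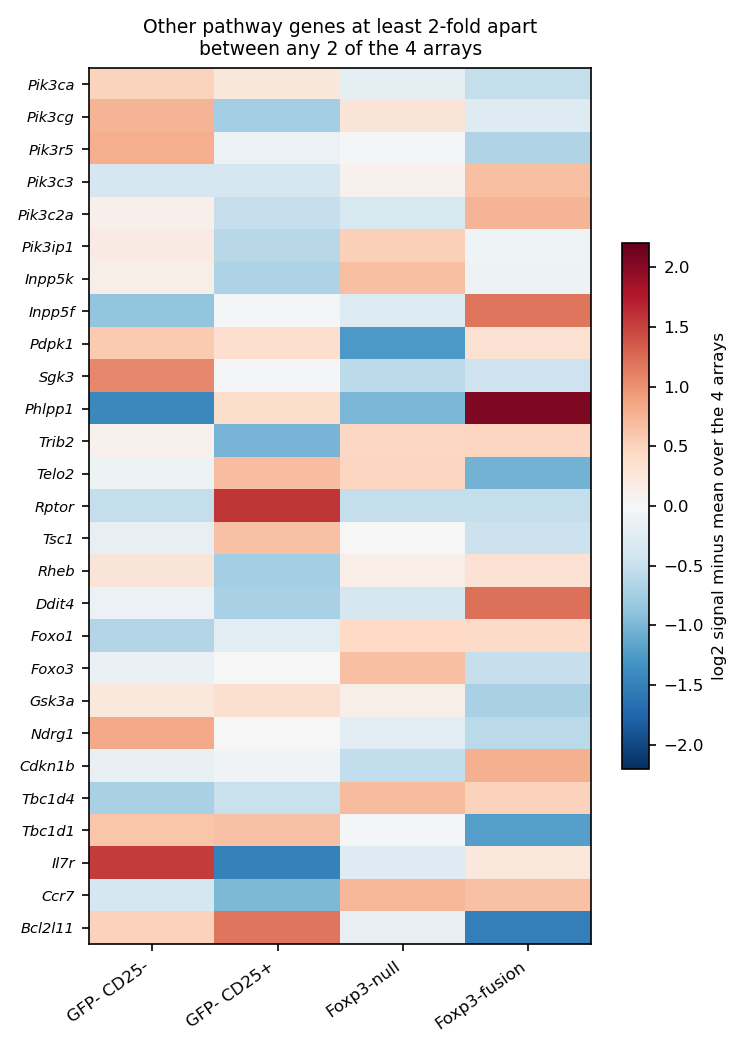
Normalized log2 signal minus its mean over the 4 arrays (colour) for the 27 other pathway genes at least 2-fold apart between some pair of arrays (rows), with signals under the floor set to it, on the 4 arrays (columns). Phlpp1, Inpp5f and Ddit4 are highest in fusion cells, Sgk3 and Ndrg1 in CD25- cells, and Pdpk1 is lowest in null cells.

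Similar profiles were sought for the 4 members whose main probe sets ranged over at least 2-fold. The nearest genes were found among 7613 others, by the root mean square distance between log2 profiles centred over the 4 arrays. Signals under the floor entered these profiles as measured, unlike in the folds. Nearest to Inpp4b were 2410002F23Rik at 0.11, Tcf20 at 0.18 and Scai at 0.28 log2. Nearest to Sgk1 were Il7r at 0.32, Tgfbr3 at 0.35 and Edaradd at 0.38. Nearest to Prr5l were Kctd14 at 0.26, C1qb at 0.38 and Lce1d at 0.41. Nearest to the main Pik3cd probe set were Adgrg6 at 0.02, Slc25a25 at 0.03 and Atp5md at 0.04. Prr5l was itself under the floor on 2 arrays, Kctd14 on 2, Adgrg6 on 2 and Tgfbr3 on 2, and Sgk1, Edaradd and 2410002F23Rik on 1 each, so those distances rest in part on signals that were not read elsewhere. With so few arrays these names are a description.

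Markers of other cell types also differed between the arrays. Of 7 dendritic cell and macrophage markers, 3 were above the floor in null cells, Csf1r, Adgre1 and Cst3, and 1 in fusion cells, Cst3. Their summed linear signal was 165.4 in null cells against 70.8 in CD25-, 78.4 in CD25+ and 114.3 in fusion cells, while Itgax, Cd68, Lyz2 and Fcer1g were under the floor on all 4 arrays. The part of such cells in the high Prr5l signal of null cells was not tested. Of 4 NK and NKT cell markers with a probe set, Klrd1 (6.32 log2) and Zbtb16 (6.39) were above the floor in CD25- cells only, Eomes was above it in the other populations only, and Ncr1 was under it throughout. Their summed signal was 195.1 in CD25- cells and 63.9 to 96.3 in the others, and its part in the high Sgk1 signal of CD25- cells was not tested. Of 5 B cell markers only Ms4a1 was above the floor, in CD25+ and null cells, and the summed signal ran from 41.4 in CD25- to 73.1 in null cells. Of 4 CD8 T cell markers, Runx3 was above the floor in CD25- cells and Cd8a in CD25+ cells, with summed signals of 53.7 to 91.3. The erythroid and gamma delta T cell markers with a probe set were under the floor on all 4 arrays, and of 5 thymic epithelial markers only Epcam was above it, on all 4 arrays.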

How the data were processed

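Per the labels' protocols, column-extracted RNA was turned into biotinylated cRNA in 2 rounds of amplification and hybridised. The authors deposited 1 log2 signal per probe set and array; the log base was inferred from the values, and background correction, summarisation and normalization are not given in the sources used here. Groups came from sample titles; the description of the null sample repeats that of the other mice. The members and the lists were chosen with earlier results of these data known.

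After 64 control probe sets were left out, the log2 values of 45037 were quantile normalized, because 90th percentiles differed between arrays. The platform annotation gave 34945 probe sets 1 gene, 932 several and 9160 none listed; only the first were named, with 34741 found in RefSeq GRCm38.p6. For the floor, the 90th percentile of 64 probe sets of genes from silent tissues was taken on each array, and the highest, 4.75 log2, was used. Values under it were set to it, except in the search for similar profiles. With 1 array per group no test was made; a difference of at least 2-fold was counted. The text names all 9 members, listed pathway genes at least 2-fold apart or named in the rule (Mtor, Foxo1; a further gene is not reported here), and the 3 nearest profiles of members that range over 2-fold. Inpp4a, Mapkap1 and Prr5 were named after their values were seen, as relatives or partners of members. Alternatives were the deposited scale, median centring, other floors, other choices of probe set and other thresholds. Promoter sequences are RefSeq's; a planned comparison of protein sequences was not run. Python 3.11.15, numpy 2.4.6 and pandas 2.3.3 were used, and the code was tested on simulated data.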

Additional observations from a re-analysis of the deposited data

How the results depend on the processing

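No paired analysis was possible because each group has 1 array. Values as deposited brought further 2-fold differences in Rictor and Akt2, given above, which the counts here leave out. Of the 15 differences of at least 2-fold, 13 were still at least 2-fold in the same direction with values as deposited. The number was 14 with arrays centred on their medians, 12 with a floor 1 log2 unit higher and 9 with the median over a gene's probe sets. Sgk1 has 1 probe set, so that median could not change it. All 15 were kept without a floor, and without probe sets that can match several transcripts. Neither outcome could have differed. The floor only shrinks differences, and the main probe sets of Inpp4b, Sgk1, Prr5l and Pik3cd are not of that kind. Using the next brightest probe set above the floor, chosen after the data were seen, kept 11. Inpp4b and Sgk1 have only 1 bright probe set each, so their differences were compared with themselves. They are among the 11 by construction. Prr5l lost CD25+ over CD25- and fusion over CD25+ cells, where both sides were under the floor. Pik3cd kept neither of its differences and its sign turned: -1.76 log2 for null over CD25- cells and 0.68 for fusion over null cells. A floor without Mbp (4.12 log2), also added later because that gene was bright here, kept 15, as any lower floor must.

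The count of members at least 2-fold apart moved by over 1.5 times in these cases. With the median over probe sets it was 2 in place of 1 for fusion over CD25- cells and 1 in place of 2 for fusion over CD25+ cells. With the next brightest probe set these were 2 and 1, and null over CD25+ cells had 4 in place of 2. With the higher floor fusion over CD25+ cells had 0. At 3-fold the counts were 1 for CD25+ over CD25- cells, 0 for fusion over CD25+ cells and 1 for null over CD25+ cells. At 1.5-fold they were 3 for fusion over CD25-, 5 for fusion over null and 5 for null over CD25+ cells. The 5 for fusion over null cells include the main Pik3r1 probe set, at 1.57-fold, which differs through the normalization alone. Causes other than the changed threshold, floor or probe set were not tested.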

Other observations

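Of 45037 probe sets, 6108 (13.6%) hold exactly the same deposited value on at least 2 arrays and 53 on all 4. Among the members, the main Prr5l probe set holds 1 value, 4.15 log2, in CD25- and fusion cells, and the main Pik3r1 probe set 1 value on all 4 arrays. Quantile normalization turns such equal values into unequal ones, by up to 0.65 log2 for Pik3r1.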
